A study of Rattus norvegicus with 9 samples.

Results

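Erythroferrone (gene symbol Erfe) and 7 genes that carry, store or release iron were examined in rat bone after ovariectomy and after treatment with astragaloside IV (AS-IV). The 8 genes, Erfe, Tfrc, Tfr2, Steap3, Slc11a2, Fth1, Ncoa4 and Slc40a1, were found by symbol among the 23026 genes of the tables, and all 8 passed the filter on low counts. The set was chosen by its measured values: Erfe was selected on its difference between OVX and Sham in these same libraries, and the others are iron genes set beside it. That difference is therefore given as a description with no test, and so are those of the other 7 genes between these groups.

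The study used female Sprague–Dawley rats that were 8 weeks old when bought. Sham rats lost only a comparable piece of fat beside the ovary, OVX rats had bilateral ovariectomy, and OVX-AS-IV-High rats had ovariectomy and then AS-IV, a saponin of Astragalus root, at 80 mg/kg. Gavage began 6 weeks after surgery and lasted 8 weeks, with sodium carboxymethyl cellulose (CMC-Na) as the vehicle. The sample labels give CMC-Na at 1%, 2% and 3% for Sham replicates 1, 2 and 3 and at 1% for each OVX library, and name no vehicle for OVX-AS-IV-High, where the methods give 1% throughout. Poly(A) RNA of bone was sequenced in 3 libraries a group, described as independent biological replicates, with between 34874880 and 37298250 counts a library. Levels are in FPKM, fragments per kilobase of transcript scaled by sequencing depth, which allows genes of different length to be compared. Differences between groups are log2 fold changes (log2FC) from the counts with their standard error (SE).

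Erythroferrone is a hormone secreted by erythroblasts, the red cell precursors of the marrow, when erythropoietin activates STAT5 through its receptor. It lowers hepcidin, the liver hormone that blocks iron export into plasma, and so makes iron available for hemoglobin. The protein is also known as myonectin, a member of the C1q/TNF family described in skeletal muscle. The other genes act in order along the path of iron through a cell. Transferrin receptor 1 (Tfrc) takes up iron-loaded transferrin, Tfr2 senses transferrin iron and associates with the erythropoietin receptor, Steap3 reduces iron in the endosome and Slc11a2 (DMT1) moves it into the cytosol. Fth1, the heavy chain of ferritin, stores iron, Ncoa4 brings ferritin to the lysosome for release of that iron, and Slc40a1 (ferroportin) exports iron and is the target of hepcidin.

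The stretch of DNA just before Erfe is printed because the gene is known as a target of the erythropoietin signal. It is taken from the RefSeq promoter table of assembly GRCr8, a later build than that of the deposited tables, and covers chr9:99404264-99404511 on the plus strand, the 248 bases before the annotated gene. Capitals mark letters of motifs that STAT factors (TTCNNNGAA), GATA factors (GATAA) and erythroid Krüppel-like factors (CACCC) are known to bind, searched on both strands.

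Erfe: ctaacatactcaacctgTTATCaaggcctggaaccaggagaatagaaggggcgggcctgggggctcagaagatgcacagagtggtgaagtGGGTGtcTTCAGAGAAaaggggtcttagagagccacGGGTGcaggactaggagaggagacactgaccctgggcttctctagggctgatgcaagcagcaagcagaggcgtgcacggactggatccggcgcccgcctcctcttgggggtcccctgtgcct

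Counted from the first base printed, TTCNNNGAA was found at bases 98 to 106, GATAA on the reverse strand at bases 18 to 22, and CACCC on the reverse strand at bases 91 to 95 and 127 to 131, with no overlap among them. Over the 250 bases before the start in all 33469 windows of the table, TTCNNNGAA occurred in 7.67%, GATAA in 23.5% and CACCC in 49.2%. Of the 8 genes, 7 had a window in the table, and Fth1 had none. Among those 7, TTCNNNGAA was found before Erfe and before no other, and GATAA was found before Erfe, Steap3 and Ncoa4. A match of letters describes the sequence and does not show that a factor binds there.

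Every library contained marrow, bone and muscle transcripts. The 14 erythroid markers, the 7 osteoblast markers and the 7 osteoclast markers each had more than 3 counts in all 9 libraries. Klf1, an erythroid transcription factor, ranged from 90.3 to 188 FPKM over the libraries, and Alas2, which starts heme synthesis in red cells, ranged from 500.5 to 748 FPKM. Col1a1, the main collagen of bone matrix, ranged from 368 to 1596 FPKM, and Acp5, the acid phosphatase of osteoclasts, from 133 to 346 FPKM. Muscle transcripts varied more, with skeletal actin Acta1 between 94.5 and 1825 FPKM and creatine kinase Ckm between 46.5 and 891 FPKM. In OVX against Sham, 6 of 6 B lineage markers and 5 of 6 adipocyte markers were higher at an unadjusted p under 0.05, as were 1 of 7 osteoblast, 2 of 7 neutrophil, 0 of 7 osteoclast and 0 of 8 proliferation markers, against 8.16% of all genes tested. In bulk bone, fewer cells of a type and less RNA per cell cannot be told apart.

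Erfe was lower in both ovariectomized groups than in Sham, with no overlap between libraries. Its level was 18.2, 14.5 and 17.8 FPKM in Sham, 8.58, 6.36 and 6.90 FPKM in OVX, and 9.34, 6.81 and 8.11 FPKM in OVX-AS-IV-High. These levels rest on 1517 to 1947 counts in each Sham library and 701 to 1043 counts in each of the others, so that counting error is small beside the spread between rats. The Sham mean was 16.8 ± 2.01 FPKM, the OVX mean 7.28 ± 1.16 FPKM and the mean with AS-IV 8.09 ± 1.27 FPKM (SD, n = 3 each). Relative to the Sham mean, Erfe therefore stood at 43.2% in OVX and 48.0% with AS-IV. Libraries of the ovariectomized groups overlapped with each other.

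**Figure D1:**
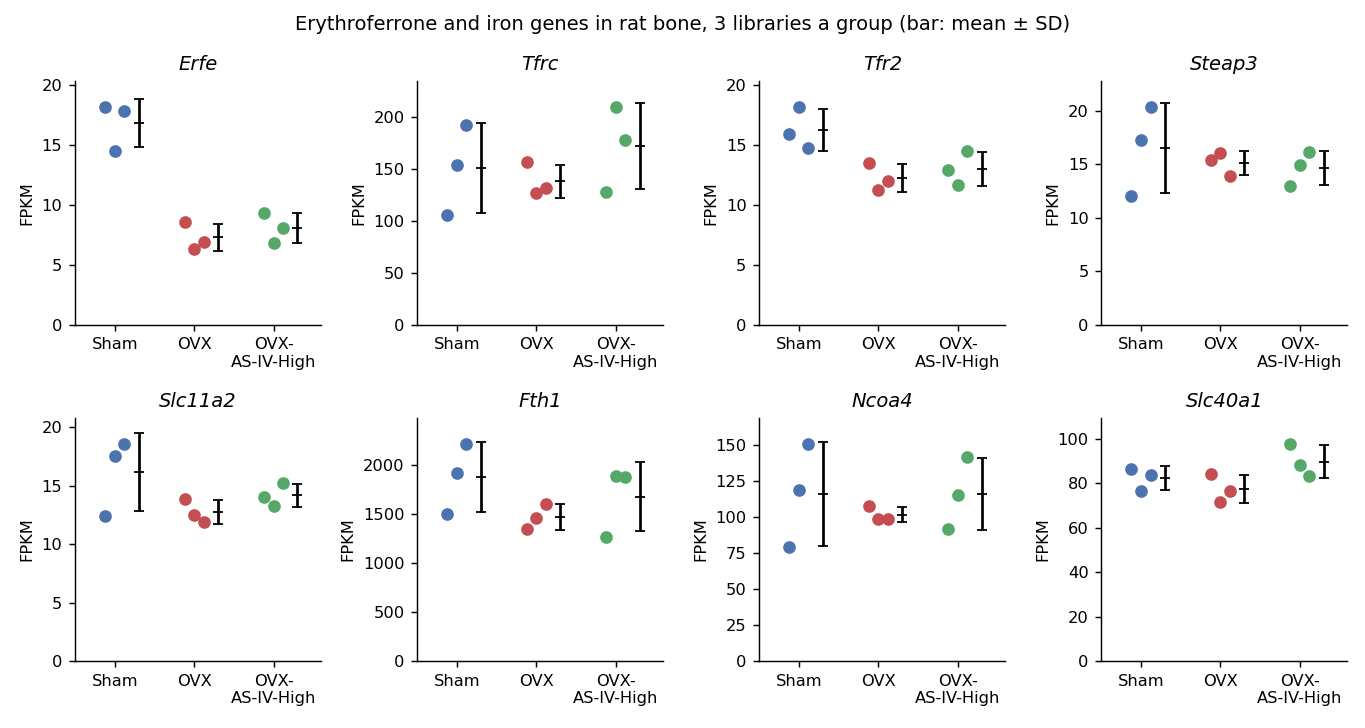
FPKM of the 8 genes in each library (points; 3 libraries of Sham, OVX and OVX-AS-IV-High), with the group mean and SD as a black bar and each vertical axis starting at 0. The 3 Sham libraries of Erfe lie between 14.5 and 18.2 FPKM, above all 6 other libraries, which lie between 6.36 and 9.34 FPKM.

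Erfe had the lowest mean level of the 8 genes. Averaged over the 9 libraries, Fth1 led with 1678 FPKM, followed by Tfrc with 154, Ncoa4 with 111, Slc40a1 with 83.1, Steap3 with 15.4, Slc11a2 with 14.4, Tfr2 with 13.9 and Erfe with 10.7 FPKM. Between neighbours in this order the libraries were apart only for Fth1 above Tfrc and for Slc40a1 above Steap3, and the other neighbours overlapped. In Sham alone Erfe, at a mean of 16.8 FPKM, was level with Steap3 (16.5), Tfr2 (16.3) and Slc11a2 (16.1), whereas in OVX its 7.28 FPKM lay below the 12.3 of Tfr2, 12.7 of Slc11a2 and 15.1 of Steap3.

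Tfr2, the other transferrin receptor, was also lower in each OVX library than in each Sham library. It measured 15.9, 18.2 and 14.8 FPKM in Sham, 13.5, 11.3 and 12.0 FPKM in OVX, and 12.9, 11.6 and 14.5 FPKM in OVX-AS-IV-High. Here too every Sham library lay above every library of both ovariectomized groups, although the gap between 14.8 FPKM, the lowest Sham library, and 14.5 FPKM, the highest OVX-AS-IV-High library, was narrow. Tfrc, the receptor for uptake, measured 106, 154 and 193 FPKM in Sham, 156, 127 and 131 FPKM in OVX, and 128, 210 and 178 FPKM in OVX-AS-IV-High. All 3 groups overlapped for Tfrc, and Sham replicates 1 and 3 lay at the ends of the Sham range.

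The endosomal genes behaved like Tfrc within Sham. Steap3 measured 12.0, 17.2 and 20.3 FPKM in Sham, 15.4, 16.1 and 13.9 FPKM in OVX, and 13.0, 14.9 and 16.2 FPKM in OVX-AS-IV-High. Slc11a2 measured 12.4, 17.5 and 18.6 FPKM in Sham, 13.9, 12.5 and 11.9 FPKM in OVX, and 14.1, 13.2 and 15.2 FPKM in OVX-AS-IV-High. In both genes Sham replicates 2 and 3 lay above all 6 ovariectomized libraries, while Sham replicate 1 lay below all of them for Steap3 and among them for Slc11a2.

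Of the storage and export genes, none separated the groups. Fth1, the ferritin heavy chain, measured 1505, 1925 and 2219 FPKM in Sham, 1350, 1458 and 1610 FPKM in OVX, and 1273, 1889 and 1879 FPKM in OVX-AS-IV-High. Ncoa4, its lysosomal receptor, measured 78.8, 119 and 150 FPKM in Sham, 107, 98.8 and 98.4 FPKM in OVX, and 91.7, 115 and 141 FPKM in OVX-AS-IV-High. Sham replicate 1 was the lowest Sham library in both genes, and the lowest of all 9 libraries for Ncoa4. Slc40a1, the exporter, measured 86.5, 76.5 and 83.8 FPKM in Sham, 83.9, 71.7 and 76.4 FPKM in OVX, and 97.6, 88.2 and 83.0 FPKM in OVX-AS-IV-High, a narrower spread than that of Tfrc or Ncoa4.

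OVX against Sham asks what loss of the ovaries does in bone. Erfe had a log2FC of -1.23 (SE 0.160), that is 2.35-fold lower in OVX, and ranked 1 of 16874 genes by p in this comparison, which is what chose it. Tfr2 followed with -0.44 (SE 0.124), then Fth1 with -0.38 (SE 0.188), Slc11a2 with -0.37 (SE 0.154), Ncoa4 with -0.22 (SE 0.228), Tfrc and Steap3 with -0.16 each (SE 0.237 and 0.178) and Slc40a1 with -0.11 (SE 0.106). All 8 estimates were below 0, with a median of -0.30 that includes Erfe, against -0.01 for all genes tested. Libraries of the groups did not overlap, with OVX lower, for 2 of the 8 genes, Erfe and Tfr2, and for 8.83% of all genes tested. Since this contrast chose Erfe, nothing is read from these signs, this median or that count. By the edgeR quasi-likelihood test the adjusted p was under 0.05 for 0 genes and the unadjusted p for 2775 (16.4%), and DESeq2 gave 790 genes an adjusted p under 0.05.

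With a library left out, the Erfe estimate ran from -1.37 without OVX replicate 1 to -1.13 without OVX replicate 2. Since this contrast chose Erfe, nothing is read from how little it moved. The estimates of Tfrc, Steap3 and Ncoa4 took their sign from Sham replicate 3. Without that library they were 0.06, 0.02 and 0.01, and without Sham replicate 1 they were -0.37, -0.36 and -0.45. Those of Slc11a2 and Fth1 were -0.26 and -0.25 without Sham replicate 3 and -0.55 and -0.54 without Sham replicate 1. With the summed level of 14 erythroid markers as a covariate, an alternative chosen after the data were seen, Tfrc, Steap3 and Ncoa4 likewise turned, to 0.09, 0.04 and 0.06, while Slc11a2 came to -0.20 and Fth1 to -0.23. Slc40a1 ran from -0.18 without OVX replicate 1 to -0.05 without OVX replicate 2.

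**Figure D2:**
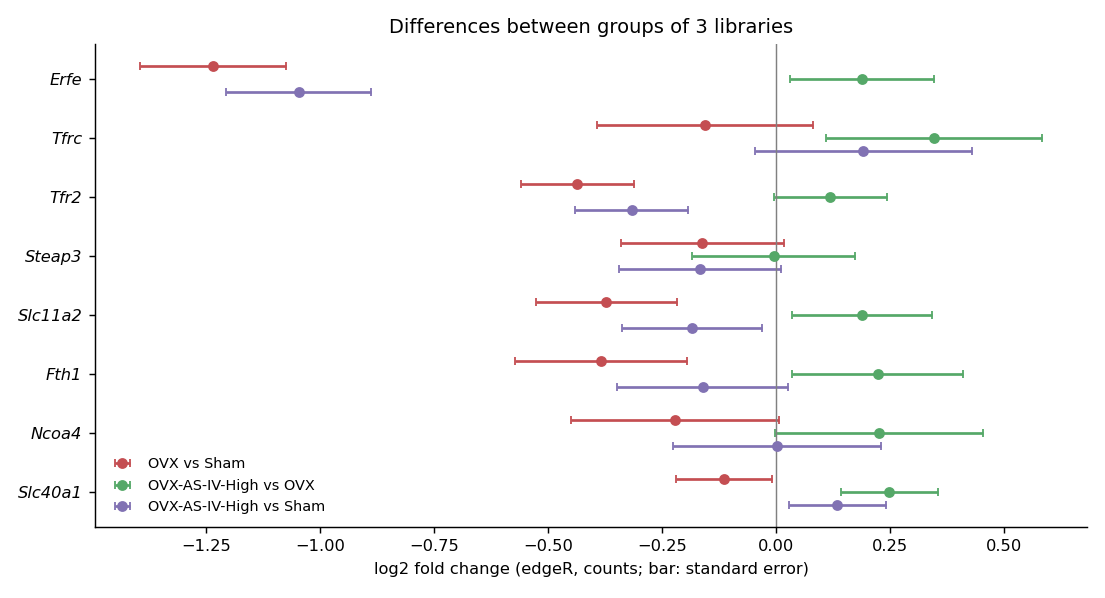
Log2 fold change of the 8 genes in OVX against Sham, OVX-AS-IV-High against OVX and OVX-AS-IV-High against Sham, from edgeR on counts, with bars of 1 standard error. Erfe lies at -1.23 and -1.05 against Sham, and the next estimate in size is that of Tfr2 at -0.44.

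OVX-AS-IV-High against OVX asks what AS-IV did in ovariectomized rats, and it uses the same OVX libraries as the comparison above. Erfe was 0.19 higher on the log2 scale in OVX-AS-IV-High (SE 0.158), with no call in the unpaired fit (edgeR quasi-likelihood test, adjusted p = 0.928). The labels and methods describe no pairing of rats between these groups, so libraries of the same replicate number share only a number. With the replicate number as a block the log2FC was 0.19 (edgeR adjusted p = 0.680). With a library left out, this estimate ran from 0.06 without OVX-AS-IV-High replicate 1 to 0.32 without OVX replicate 1. Slc40a1, the iron exporter, had a log2FC of 0.25 (SE 0.106, edgeR adjusted p = 0.765). It was the only 1 of the 8 genes with an unadjusted p under 0.05, and higher expression, against 4.42% of all genes tested. Its libraries overlapped, since the lowest of OVX-AS-IV-High (83.0 FPKM) lay below the highest of OVX (83.9 FPKM). The call was lost when any of OVX replicates 2 and 3, OVX-AS-IV-High replicates 1 and 2 or Sham replicate 2 was left out, and the log2FC was 0.17 without OVX-AS-IV-High replicate 1. For 0 of the 8 genes were the libraries of the groups apart in this comparison, against 13.8% of all genes tested.

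The remaining 6 genes had no call for AS-IV. Tfrc had a log2FC of 0.35 (SE 0.237), Fth1 of 0.22 (SE 0.188), Ncoa4 of 0.22 (SE 0.228), Slc11a2 of 0.19 (SE 0.154), Tfr2 of 0.12 (SE 0.124) and Steap3 of -0.01 (SE 0.178), with edgeR adjusted p-values from 0.913 for Tfrc to 0.998 for Steap3. Single libraries moved several of these values. With 1 library left out Tfrc ran from 0.18 (without OVX-AS-IV-High replicate 2) to 0.51, Fth1 from 0.13 (without that same library) to 0.38, and Ncoa4 from 0.07 (without OVX-AS-IV-High replicate 3) to 0.36, each highest without OVX-AS-IV-High replicate 1. Tfr2 ran from 0.04 without OVX-AS-IV-High replicate 3 to 0.20 without OVX replicate 1. The sign of the Steap3 value turned under other scalings of the libraries. In this comparison the edgeR adjusted p was under 0.05 for 0 of 16874 genes and the unadjusted p for 1089 (6.45%), and DESeq2 gave 27 genes an adjusted p under 0.05.

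OVX-AS-IV-High against Sham shows where the treated rats stood relative to rats that kept their ovaries. Its Sham libraries also took part in choosing Erfe, so it is not independent of that choice, and no p of Erfe here is read as a test. Erfe had a log2FC of -1.05 (SE 0.159, edgeR adjusted p = 0.0639), and it was lower in 3 of 3 treated libraries than in every Sham library. Over 18 alternative fits the adjusted p of Erfe, from edgeR, DESeq2 or limma, ran from 4.31e-06 to 0.302 and was under 0.05 in 2. Tfr2 had a log2FC of -0.32 (SE 0.124, edgeR adjusted p = 0.238). Erfe and Tfr2 were the 2 of 8 genes with an unadjusted p under 0.05 and lower expression (8.48% of all genes tested) and the 2 of 8 with every treated library below Sham (10.9% of all genes tested); since the Sham libraries took part in choosing Erfe, nothing is read from these counts. The call of Tfr2 was lost without Sham replicate 2, without OVX-AS-IV-High replicate 1 and without OVX-AS-IV-High replicate 2. The other 6 genes had edgeR adjusted p-values from 0.532 for Slc40a1 to 0.996 for Ncoa4. Without Sham replicate 1, Slc11a2 (log2FC -0.35) and Steap3 (log2FC -0.36) also had an unadjusted p under 0.05. Here 0 genes passed the edgeR adjusted threshold, against 2978 (17.6%) at an unadjusted p under 0.05, and DESeq2 gave 951 genes an adjusted p under 0.05.

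The level of Erfe was set beside the transcripts of the cells known to make it. The 14 erythroid markers summed to 2110, 2946 and 3597 FPKM in Sham, 2975, 2280 and 2508 FPKM in OVX, and 2427, 2593 and 3086 FPKM in OVX-AS-IV-High. The groups overlapped, and 2 of the 14 markers were lower in OVX than in Sham at an unadjusted p under 0.05, against 8.28% of all genes tested, and none was higher. Sham replicate 1 had the lowest erythroid sum of all 9 libraries and the highest Erfe level. Per 1000 counts of these markers, the Sham libraries held 10.0, 5.66 and 5.87 Erfe counts, the OVX libraries 3.47, 3.31 and 3.36, and the treated libraries 4.50, 3.15 and 3.08. Here too each Sham library lay above each of the others, with means of 7.18 ± 2.46, 3.38 ± 0.0808 and 3.58 ± 0.798 (SD, n = 3 each). With the erythroid sum as a covariate, chosen after the data were seen, the log2FC of Erfe in OVX against Sham was -1.21.

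Skeletal muscle, the other tissue in which this gene is described, differed more between libraries. The 14 muscle markers present in the table, of 15 listed, summed to 6637, 4760 and 1160 FPKM in Sham, 2543, 1378 and 1213 FPKM in OVX, and 3586, 1575 and 426 FPKM in OVX-AS-IV-High, and 0 of them were at 0 in any library. Their median log2FC in OVX against Sham was -1.41, with 0 of 14 at an unadjusted p under 0.05. With the muscle sum as a covariate, likewise chosen after the data were seen, the log2FC of Erfe was -1.19 in OVX against Sham and -0.99 in OVX-AS-IV-High against Sham. The fits with either covariate use the Erfe values that chose the gene, with 3 libraries a group, so nothing is read from them. The part of muscle or erythroid transcripts in the difference of Erfe was not tested.

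**Figure D3:**
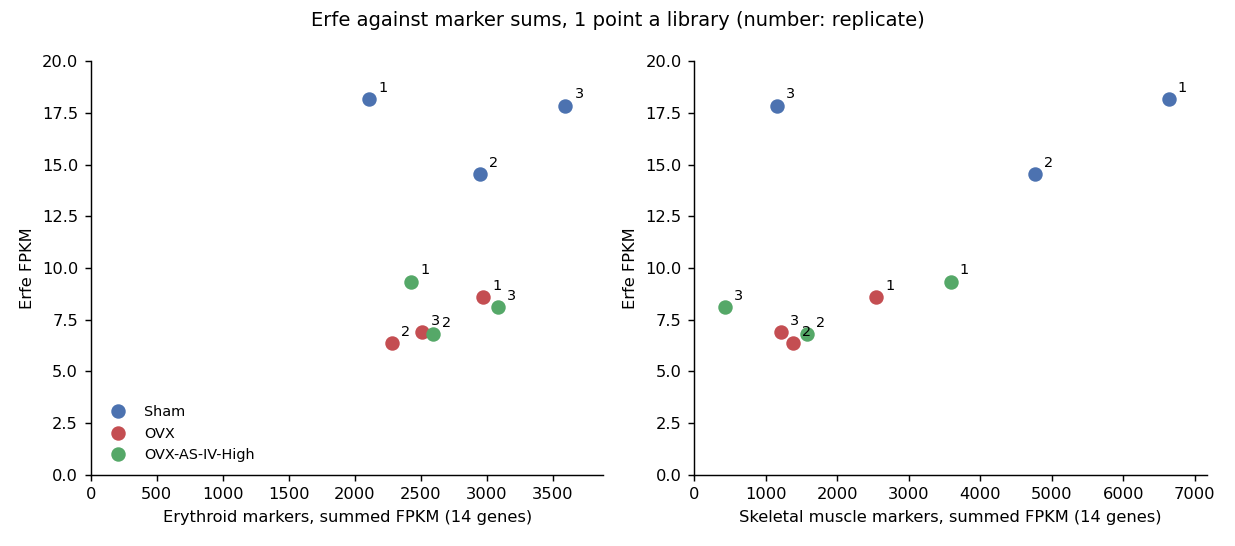
Erfe level (FPKM) against the summed FPKM of 14 erythroid markers (left) and 14 skeletal muscle markers (right), with 1 point a library, coloured by group and numbered by replicate. The Sham points lie between 14.5 and 18.2 FPKM of Erfe, at erythroid sums from 2110 to 3597 FPKM and muscle sums from 1160 to 6637 FPKM.

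Several of the other iron genes followed the erythroid sum from library to library. Over the 9 libraries, on the log2 CPM scale, the correlation with that sum was highest for Ncoa4 (Pearson r = 0.919, exact permutation p = 0.000620, adjusted over 7 genes 0.00324). Its Spearman rho was 0.933 (exact permutation p = 0.000750, adjusted 0.00525). Slc11a2 had r = 0.899 (exact permutation p = 0.000926, adjusted 0.00324) and rho = 0.867 (exact permutation p = 0.00451, adjusted 0.0158). Without the libraries farthest from the median of the erythroid sum, Sham replicates 3 and 1, r was 0.808 for Ncoa4 and 0.827 for Slc11a2 (exact permutation p = 0.0286 and 0.0206). The erythroid sum rose over Sham replicates 1, 2 and 3, at 5341, 7857 and 9167 CPM. So did the macrophage (698, 874 and 1263 CPM), osteoblast, osteoclast, adipocyte and proliferation sums. The muscle (11632, 8939 and 1957 CPM) and neutrophil sums fell. The permutations, here and below, exchange libraries across the 3 groups, so their p-values ignore that libraries share a group. Whether these relations are particular to erythroid transcripts was not tested, and the share of all genes with such correlations was not computed.

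Steap3 and Tfrc also followed the sum, but their relation was weaker without those Sham libraries. Steap3 had r = 0.853 (exact permutation p = 0.00330, adjusted 0.00770) and rho = 0.800 (exact permutation p = 0.0138, adjusted 0.0242), and Tfrc had r = 0.756 (exact permutation p = 0.0202, adjusted 0.0353) and rho = 0.833 (exact permutation p = 0.00827, adjusted 0.0193). Without Sham replicates 3 and 1, r came to 0.587 for Steap3 and 0.540 for Tfrc (exact permutation p = 0.170 and 0.206). These 2 libraries are the ends of the range of the sum, and 7 libraries remain. Leaving them out therefore cannot show that the relation rested on them. For Fth1, r was 0.685 (exact permutation p = 0.0446, adjusted 0.0624) and rho 0.600 (exact permutation p = 0.0968, adjusted 0.136). Tfr2 had r = 0.469 and rho = 0.400 (exact permutation p = 0.203 and 0.291, adjusted 0.237 and 0.340), and r = 0.842 without those libraries (exact permutation p = 0.0107). Slc40a1 showed no relation, with r = 0.128 and rho = 0.0833 (exact permutation p = 0.754 and 0.843, adjusted likewise 0.754 and 0.843). With group means removed, r was 0.928 for Ncoa4, 0.935 for Slc11a2, 0.866 for Steap3, 0.809 for Tfrc, 0.632 for Fth1, 0.381 for Tfr2 and -0.04 for Slc40a1. No correlation with the erythroid sum is given for Erfe, whose Sham libraries stand apart from the other 6.

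**Figure D4:**
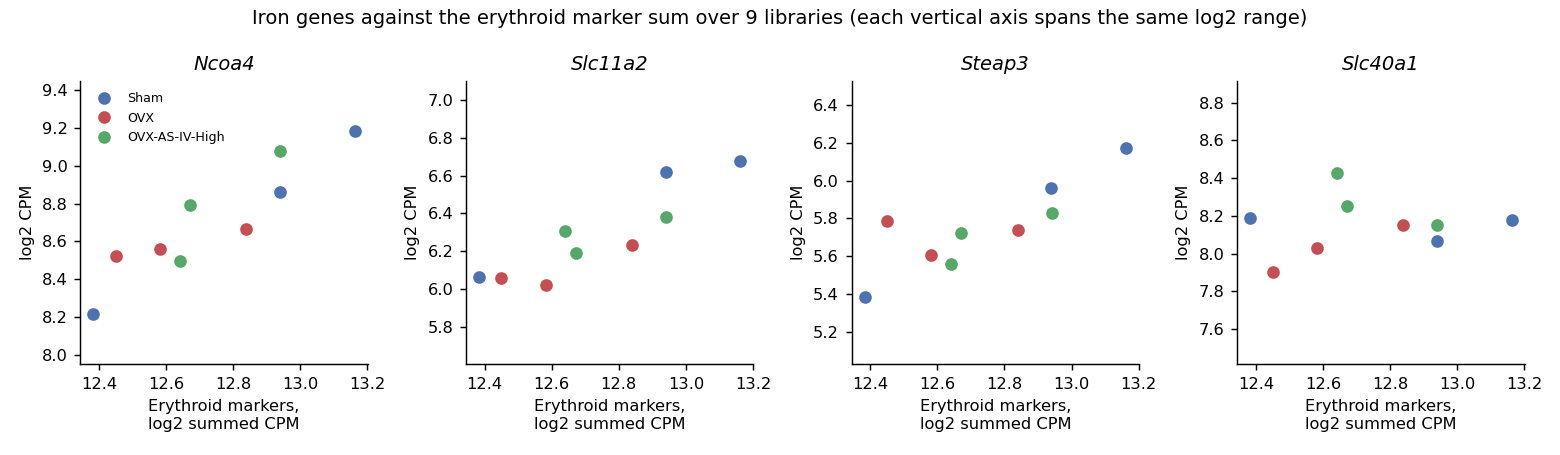
Log2 CPM of Ncoa4, Slc11a2, Steap3 and Slc40a1 against the log2 summed CPM of the erythroid markers in the 9 libraries, coloured by group, each vertical axis spanning the same log2 range. The first 3 genes rise with the sum (r = 0.919, 0.899 and 0.853), and Slc40a1 does not (r = 0.128).

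The wider iron pathway was read from a list of 61 other genes in 8 roles. Of these, 59 were in the table, 56 passed the filter on low counts, and Ftmt and Epo were not analysed here. The 3 genes below the filter were Ltf (lactoferrin, 0 to 18 counts a library), Hamp (hepcidin, 0 to 8 counts) and Tmprss6 (a liver protease that restrains hepcidin, 0 or 1 count), so that hepcidin itself, which the liver makes, could not be compared in bone at this depth.

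In OVX against Sham, 8 of the 56 genes were lower and 3 were higher at an unadjusted p under 0.05, against 8.28% lower and 8.16% higher of all genes tested. The median log2FC of the 56 genes was 0.03, against -0.01 for all genes. By role, calls were made for 3 of 8 genes of the erythropoietin signal (all lower), 2 of 5 of mitochondrial iron (both lower), 1 of 10 of heme turnover (lower), 1 of 6 of storage and export (lower), 2 of 11 of uptake (1 in each direction), 2 of 12 of hepcidin control (both higher) and 0 of 3 of iron sensing. C1qtnf12, a relative of Erfe in the C1q/TNF family, had a log2FC of -0.21 (SE 0.436).

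Hmox1, heme oxygenase 1, which breaks heme down and frees its iron, had the smallest p of the list. It measured 114, 98.4 and 141 FPKM in Sham against 70.9, 65.3 and 77.6 in OVX (log2FC -0.75, SE 0.134, edgeR adjusted p = 0.118), and 64.9, 63.6 and 66.3 FPKM in OVX-AS-IV-High. Both ovariectomized groups lay below Sham with no overlap, and they overlapped with each other. Macrophages recycle heme in marrow, and the 11 macrophage markers summed to 395 to 707 FPKM in Sham and 508 to 602 in OVX, with 0 of 11 past an unadjusted p of 0.05 and a median log2FC of 0.06. Their part in the difference of Hmox1 was not tested.

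Ftl1, the ferritin light chain that pairs with Fth1, measured 1920, 1800 and 2256 FPKM in Sham and 1561, 1554 and 1570 in OVX (log2FC -0.38, SE 0.118, edgeR adjusted p = 0.188). Its groups were apart where those of Fth1, with the same log2FC of -0.38, overlapped. Slc25a37 (mitoferrin), which brings iron into erythroid mitochondria, had a log2FC of -0.54 (SE 0.168, edgeR adjusted p = 0.188), from 194 ± 36.2 FPKM in Sham to 136 ± 22.6 in OVX, with overlap between the groups. Exoc6, of the complex that returns transferrin receptor vesicles to the surface, was the uptake gene with higher expression in OVX: 11.0, 12.9 and 13.9 FPKM in Sham against 16.5, 18.6 and 17.7 (log2FC 0.45, SE 0.112, edgeR adjusted p = 0.149).

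Within the erythropoietin signal, Gdf15, a secreted factor that rises with erythroid and cellular stress, measured 6.56, 3.42 and 3.84 FPKM in Sham and 2.99, 2.81 and 2.23 in OVX (log2FC -0.80, SE 0.257, edgeR adjusted p = 0.199). The Gdf15 estimate was -0.49 without Sham replicate 1. Stat5a, the transcription factor downstream of the receptor, measured 20.5, 19.7 and 21.0 FPKM in Sham and 16.8, 16.9 and 17.2 in OVX (log2FC -0.30, SE 0.0955, edgeR adjusted p = 0.199). For both genes the 3 OVX libraries were all lower than the lowest of Sham. Epor, the erythropoietin receptor, is named after its values were seen: it measured 51.8, 79.8 and 67.8 FPKM in Sham and 51.2, 47.7 and 45.5 in OVX (log2FC -0.50, SE 0.172, edgeR adjusted p = 0.216). The Epor groups were apart by a narrow margin, and its call was lost without Sham replicate 2 (log2FC -0.32) and without OVX replicate 3 (log2FC -0.46). Cish, a classical STAT5 target also named after its values were seen, had a log2FC of -0.71 (SE 0.334, edgeR adjusted p = 0.323) and no call. It measured 4.09, 2.59 and 1.57 FPKM in Sham and 1.63, 1.69 and 1.78 in OVX, so that the groups overlapped and Sham replicate 1 was the highest. The other 4 genes of this role had no call either, and the role did not move in 1 direction. Jak2 measured 14.5, 20.3 and 17.8 FPKM in Sham and 21.2, 21.7 and 20.2 in OVX, mostly higher. Stat5b measured 25.2, 24.5 and 23.9 FPKM in Sham and 25.3, 26.7 and 24.0 in OVX. Pim1 measured 18.5, 23.1 and 37.9 FPKM in Sham and 21.7, 26.9 and 28.1 in OVX. Socs2 measured 6.24, 6.14 and 6.22 FPKM in Sham and 5.66, 5.23 and 6.28 in OVX.

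**Figure D5:**
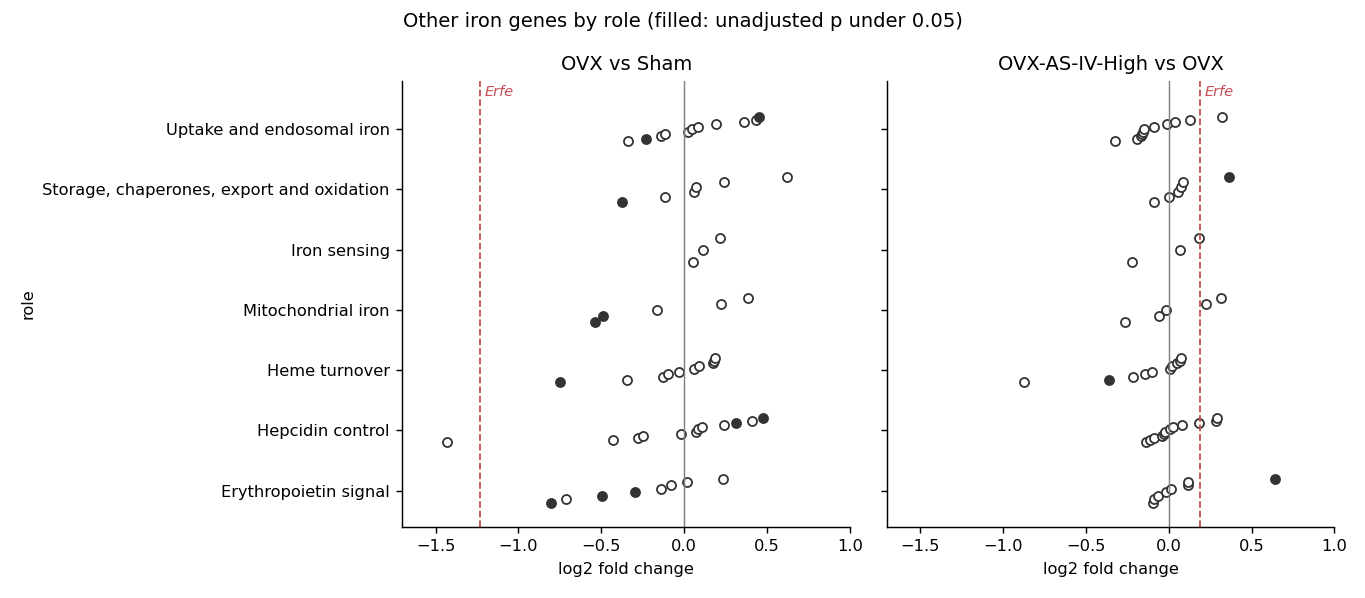
Log2 fold change of the other iron genes by role (55 points, C1qtnf12 left out) in OVX against Sham (left) and OVX-AS-IV-High against OVX (right), with filled points for an unadjusted p under 0.05 and a dashed line at Erfe. In the left panel, the point left of the Erfe line is Hjv, and the filled points of the erythropoietin signal are Gdf15, Epor and Stat5a.

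Hjv, a coreceptor that raises hepcidin and is also made by muscle, was the 1 listed gene with a lower estimate than Erfe in OVX against Sham, and is named after its values were seen. It had a log2FC of -1.43 (SE 0.804, edgeR adjusted p = 0.386), from 26.4 ± 19.3 FPKM in Sham to 9.91 ± 5.02 in OVX, a difference within the spread between libraries. The muscle sums given above varied between the same libraries, and their part was not tested.

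In OVX-AS-IV-High against OVX, 2 of the 56 genes were higher and 1 lower at an unadjusted p under 0.05, against 4.42% higher and 2.03% lower of all genes tested. Gdf15 measured 4.08, 3.76 and 4.40 FPKM in OVX-AS-IV-High against 2.99, 2.81 and 2.23 in OVX (log2FC 0.64, SE 0.257, edgeR adjusted p = 0.733), with the groups apart. Heph, the ferroxidase hephaestin that works with ferroportin, measured 4.47, 5.87 and 5.18 FPKM against 3.87, 4.45 and 4.01 (log2FC 0.37, SE 0.161, edgeR adjusted p = 0.772). Cd163, the macrophage receptor for hemoglobin, measured 11.6, 11.2 and 11.7 FPKM against 14.7, 17.2 and 13.5 (log2FC -0.36, SE 0.157, edgeR adjusted p = 0.769). The call of Cd163 was lost with the replicate number as a block (log2FC -0.36). Each of the 3 calls was also lost when single libraries were left out, among them OVX replicate 3 for Gdf15 (log2FC 0.54), OVX-AS-IV-High replicate 2 for Heph (0.27) and OVX replicate 2 for Cd163 (-0.27). Epor had a log2FC of 0.11 (SE 0.172, edgeR adjusted p = 0.956).

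In OVX-AS-IV-High against Sham, 5 of the 56 genes were higher and 4 lower at an unadjusted p under 0.05, against 9.17% higher and 8.48% lower of all genes tested. Hmox1 had a log2FC of -0.85 (SE 0.134, edgeR adjusted p = 0.0738) and Stat5a of -0.39 (SE 0.0956, edgeR adjusted p = 0.118). Ireb2, an iron regulatory protein that binds the messages of Tfrc and the ferritins, was higher, at 17.7 ± 1.20 FPKM against 13.5 ± 1.26 in Sham (log2FC 0.40, SE 0.0991, edgeR adjusted p = 0.118). Lcn2, which binds the iron carriers of bacteria and is abundant in neutrophils, was higher at 632 ± 39.5 FPKM against 508 ± 45.1 (log2FC 0.32, SE 0.109, edgeR adjusted p = 0.185). The 7 neutrophil markers summed to 17377 to 22272 FPKM in OVX-AS-IV-High and 12495 to 18683 in Sham, with 3 of 7 higher at an unadjusted p under 0.05 (9.17% of all genes tested), and their part in the difference of Lcn2 was not tested. Smad6, an inhibitor of BMP signalling, was higher (log2FC 0.50, SE 0.171, edgeR adjusted p = 0.188), and Hpx, the heme scavenger hemopexin, was lower at 8 to 24 counts a library against 29 to 34 (log2FC -1.22, SE 0.462, edgeR adjusted p = 0.224). The call of Hpx was lost without any of Sham replicates 2 and 3 or OVX-AS-IV-High replicates 1 and 2, and that of Smad6 without Sham replicate 1.

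The genes whose log2 CPM over the 9 libraries followed Erfe most closely were Ubqln4 (Pearson r = 0.983), Baz1b (0.974), Adissp (0.965), Znf454 (0.965) and Dysf (0.964), of which Znf454 averaged only 0.0583 FPKM. These points share their groups, and with group means removed r was 0.909, 0.741, 0.833, 0.698 and 0.705. The genes were picked for the highest r over all genes tested, so both sets of values overstate the likeness. Ubqln4, a ubiquilin of protein quality control, measured 32.5, 31.1 and 33.2 FPKM in Sham, 25.8, 22.8 and 24.3 FPKM in OVX, and 26.0, 21.9 and 25.0 FPKM in OVX-AS-IV-High. Dysf, dysferlin of membrane repair, measured 4.92, 4.66 and 4.51 FPKM in Sham, 2.61, 2.48 and 2.58 FPKM in OVX, and 2.91, 2.07 and 2.53 FPKM in OVX-AS-IV-High. By Spearman's rho, 2 of these 5 genes were among the first 5. None of the 5 is among the 61 listed genes.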

How the data were processed

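Poly(A) RNA of bone was sequenced by the authors in 3 libraries of each group. Reads were checked with FASTQC, filtered with NGS QC Toolkit, aligned with Tophat and Bowtie2 and quantified with eXpress; the submitters' processing notes name the genome build mRatBN7.2. The tables deposited by the authors hold raw counts per gene as whole numbers and FPKM values of the same genes. How the estimates of eXpress became whole numbers, and whether strand was used in counting, is not given in the sources used here.

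R 4.3.3 and edgeR 4.0.16 were used for a quasi-likelihood test of the counts, after TMM scaling and the default filter (minimum count 10), on all 9 libraries in 1 fit and 16874 genes. Benjamini-Hochberg adjustment was over all genes tested. The common biological coefficient of variation was 0.256. The study's methods give DESeq with unadjusted p-values, and an unadjusted p under 0.05 is the call used here. The study also required an absolute log2FC over 1 in its results, and over a smaller value in its methods. The call used here has no such threshold and is therefore looser. The 3 comparisons share libraries. Exact permutation tests were two-sided. Markers were summed over FPKM, or over CPM for covariates and correlations.

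The 8 genes, the pathway list and the marker lists were chosen with earlier results of these data known. Of the pathway list, up to 6 genes with the smallest p were named in each comparison, and the 5 genes with the highest Pearson correlation with Erfe (log2 CPM, prior count 2). Lists without a role in these comparisons serve as a check of tissue makeup.

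Deviations from group means correlated between OVX and OVX-AS-IV-High libraries of the same number at 0.310, 0.158 and 0.130. Between Sham and OVX these correlations were 0.200, -0.161 and 0.253, and for Sham with the AS-IV group 0.314, -0.158 and 0.435. Libraries of different numbers were not compared in this way, so these values cannot show a pairing. The replicate block was therefore run only as an alternative.

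Simulated data for OVX against Sham had 200 genes changed 3-fold. There edgeR recovered 147 (73.5%) with 3 false calls among 16664 genes. DESeq2 1.42.0 recovered 169 with 45 among 16864, and limma 3.58.1 recovered 151 with 9 among 16874. The simulated counts were drawn independently for each gene and library from negative binomial distributions, with the dispersions fitted by edgeR. They hold no variation shared between genes, so they cannot rank the tools on the real data. Alternatives were DESeq2, RLE size factors, no filter, limma on log2(FPKM + 1) and log2(FPKM + 0.1), the compared groups alone, a replicate block, and each library left out. Covariates for erythroid and muscle marker sums were added after the data were seen. Python 3.11.15, numpy 2.4.6, scipy 1.17.1, pandas 2.3.3 and matplotlib 3.10.9 were used.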

Additional observations from a re-analysis of the deposited data

How the results depend on the processing

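The log2FC of Erfe kept its direction in all 3 comparisons under every alternative. Against Sham this followed from the choice of Erfe, whose Sham libraries all lay above the other libraries, so nothing is read from it. With a library left out it ran from -1.37 to -1.13 in OVX against Sham, from 0.06 to 0.32 in OVX-AS-IV-High against OVX and from -1.18 to -0.93 in OVX-AS-IV-High against Sham. In OVX-AS-IV-High against OVX, the 1 of 8 genes with an unadjusted p under 0.05, Slc40a1, became 0 with limma on log2(FPKM + 0.1) and with the compared groups alone, and 0 to 1 with a library left out. In OVX-AS-IV-High against Sham, the 2 of 8 became 1 to 4 with a library left out. The share of all genes called was not computed under these alternatives, so nothing is read from these counts. Steap3 in OVX-AS-IV-High against OVX turned to 0.0074 with DESeq2, 0.0070 with RLE size factors, 0.0090 with no filter, and as far as 0.064 with a library left out (from -0.070). In OVX-AS-IV-High against Sham, estimates near 0 also turned: with a library left out Tfrc ran from -0.013 to 0.41, Steap3 from -0.36 to 0.010 and Ncoa4 from -0.22 to 0.24, with Sham replicate 1 or 3 left out at both ends, and Ncoa4 was -0.26 with the muscle sum as a covariate. The correlation of Slc40a1 with the erythroid sum turned to -0.038 with group means removed.

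Of the pathway list, 11 genes had an unadjusted p under 0.05 in OVX against Sham, and 9 to 17 with a library left out, 17 of them without Sham replicate 3, and 18 with the erythroid covariate. In OVX-AS-IV-High against OVX, the 3 genes became 1 to 4 with a library left out and 5 with each covariate. In OVX-AS-IV-High against Sham, the 9 genes became 7 to 13 with a library left out and 14 with the replicate block. In the main fit the shares of all genes tested were 16.4%, 6.45% and 17.6% in these comparisons, in the same order. Under the alternatives that share was not computed, so nothing is read from the changes in these counts.

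The count of all genes with an adjusted p under 0.05 was 0 in each comparison. In OVX against Sham it was 790 with DESeq2, 21 with the replicate block, 1 with the muscle covariate and 0 to 21 with a library left out. In OVX-AS-IV-High against OVX it was 27 with DESeq2 and 0 to 29 with a library left out (29 when the third treated library was dropped). In OVX-AS-IV-High against Sham it was 951 with DESeq2, 58 with the replicate block, 5 with no filter, 4 and 5 with limma at pseudocounts of 1 and 0.1, 2 with the erythroid and 69 with the muscle covariate, and 0 to 141 with a library left out, 141 when that same library was dropped. Of the 5 genes most like Erfe, 2 were kept by Spearman. The causes were not tested.

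With the replicate block, Erfe had a log2FC of -1.24 in OVX against Sham, 0.19 in OVX-AS-IV-High against OVX (adjusted p = 0.680 in edgeR) and -1.06 in OVX-AS-IV-High against Sham (adjusted p = 0.0167 in edgeR). Since the Sham libraries took part in choosing Erfe, nothing is read from the p against Sham. The labels and methods describe no pairing of rats, so in each comparison the block shares only a number. In OVX-AS-IV-High against OVX the block ended the call of Cd163 and no other among the named genes. With 3 libraries a group, an exact permutation test of a single gene cannot give a p below 0.1.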
